A study of Mus musculus with 21 samples.

Results

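The ubiquitin-specific proteases are the largest family of deubiquitinating enzymes. The genes described here are the protein-coding genes in the deposited count table whose mouse symbol starts with Usp and a digit. There were 54 of them among 46071 genes, of which 41 had enough counts to be tested and 13 did not. 2 further genes of the family, 1 of them Y-linked, were left out. 1 gene with such a symbol, Usp6nl, encodes a Rab GTPase-activating protein and no protease.

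Ubiquitin is attached to proteins by ligases, often in chains that send the protein to the proteasome, and ubiquitin-specific proteases cut it off again with a cysteine protease domain. By doing so they can spare a protein from breakdown, recycle ubiquitin, or change where a protein goes and what it binds. In wasting muscle the ligases atrogin-1 and MuRF1, which FoxO transcription factors switch on, speed the breakdown of muscle protein, and several ubiquitin-specific proteases have been tied to muscle mass, to the proteasome and to the removal of damaged mitochondria.

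RNA sequencing measured muscle of mice that differed in genotype and in whether they had received streptozotocin (STZ), which kills pancreatic beta cells and so makes mice diabetic. There were 6 STZ TKO, 5 STZ floxed, 6 TKO and 4 floxed libraries. RNA came from powdered quadriceps mixed with gastrocnemius, and total counts were 2951290 to 7687823 per library. The question of the design was which effects of diabetes on muscle need FoxO1, FoxO3 and FoxO4.

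STZ TKO and TKO mice carried floxed alleles of all 3 FoxO genes together with ACTA1-Cre, a recombinase driven by the skeletal actin promoter, so that deletion was directed to muscle fibres while other cells of the muscle kept the genes. STZ floxed and floxed mice were littermates with the floxed alleles, and all 4 groups shared a mixed background of C57Blk6, C57Blk6J and 129. STZ TKO and STZ floxed mice were fasted and received STZ at 150 mg/kg, with females given 75 mg/kg more on day 3, and had to stay above 300 mg/dL random blood glucose. For TKO and floxed libraries the labels give no drug, and the study's design describes citrate buffer as the control injection. The labels give no ages and do not say that each library was a separate animal, so p-values measure the spread between libraries, which may be technical. Libraries are named by the numbers 1 to 21 in their titles.

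Foxo4 and Foxo1 were lower in every knockout library than in every floxed library. Foxo4 had 3.87 to 12.7 CPM in knockouts and 124 to 201 CPM in floxed libraries, and Foxo1 had 7.0 to 26.7 CPM in knockouts and 36.4 to 113 CPM in floxed libraries. CPM is the usual per-library count rate, here with each library scaled by TMM, which adjusts for composition. Foxo3 had log2 changes of 0.59 ± 0.23 under STZ and 0.40 ± 0.25 without STZ (SE), neither past the threshold used below, and a count over the whole gene can include exons that a deletion leaves in place. The 10 skeletal muscle markers were all detected, with summed levels of 122000 to 191000 CPM in STZ TKO, 72300 to 220000 in STZ floxed, 88800 to 208000 in TKO and 167000 to 240000 in floxed libraries. Macrophage markers moved with the genotype: the summed level of all 14 ran from 294 to 2520 CPM in STZ TKO and from 186 to 284 in STZ floxed libraries, and from 303 to 2000 in TKO and from 170 to 220 in floxed libraries, with none of the markers at 0.

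The promoters of the 4 proteases that passed the threshold in any comparison are shown because the genotype removes a transcription factor family. Each is the RefSeq window on GRCm38.p6 from 250 bases before to 50 bases after the annotated start, written along the strand of the gene, with the base at the start in capitals. Usp25 lies at chr16:77013819-77014118 on the plus strand, Usp20 at chr2:30982029-30982328 on the plus strand, Usp46 at chr5:74068362-74068661 on the minus strand and Usp16 at chr16:87454735-87455034 on the plus strand. GC content was 79% for Usp25, 66.3% for Usp20, 78% for Usp46 and 56.3% for Usp16.
Usp25: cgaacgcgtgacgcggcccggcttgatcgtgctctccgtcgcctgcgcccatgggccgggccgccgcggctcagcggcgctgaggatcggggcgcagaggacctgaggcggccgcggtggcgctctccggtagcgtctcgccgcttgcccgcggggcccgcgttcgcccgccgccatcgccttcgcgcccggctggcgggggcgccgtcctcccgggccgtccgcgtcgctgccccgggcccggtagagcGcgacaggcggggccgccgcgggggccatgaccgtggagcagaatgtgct
Usp20: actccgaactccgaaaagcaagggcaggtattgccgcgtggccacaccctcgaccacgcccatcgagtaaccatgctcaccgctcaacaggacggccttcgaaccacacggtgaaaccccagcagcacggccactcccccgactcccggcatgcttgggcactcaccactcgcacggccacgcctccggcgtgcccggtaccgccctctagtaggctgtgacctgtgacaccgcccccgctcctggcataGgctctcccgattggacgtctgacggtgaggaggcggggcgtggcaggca
Usp46: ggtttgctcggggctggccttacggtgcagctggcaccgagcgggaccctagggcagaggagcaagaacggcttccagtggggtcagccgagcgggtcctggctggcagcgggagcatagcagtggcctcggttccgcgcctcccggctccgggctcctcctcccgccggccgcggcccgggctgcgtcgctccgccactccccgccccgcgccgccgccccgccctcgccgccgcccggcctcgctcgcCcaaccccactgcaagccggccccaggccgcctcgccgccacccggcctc
Usp16: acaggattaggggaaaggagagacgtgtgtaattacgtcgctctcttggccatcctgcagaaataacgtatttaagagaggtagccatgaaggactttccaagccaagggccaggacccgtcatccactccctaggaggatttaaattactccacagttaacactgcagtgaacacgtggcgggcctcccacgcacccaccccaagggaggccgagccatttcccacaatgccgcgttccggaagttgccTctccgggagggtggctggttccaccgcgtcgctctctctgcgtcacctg

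None of these 4 windows held GTAAACA, the core of the FoxO consensus, or AAAACAA, from the insulin response element, on either strand (reverse complements TGTTTAC and TTGTTTT). In GENCODE M21, Usp25 starts at 77013706 and Usp16 at 87454703, so their RefSeq windows lie wholly downstream of those starts. For these genes sequence before the GENCODE start was not searched, and sites outside the windows were not searched for any gene. RefSeq windows were found for 42 of the 54 genes. Over their 43 windows GTAAACA occurred in 0 and AAAACAA in 2, those of Usp6nl and Usp54. Among 32851 mouse promoter windows of the same length, 3.65% held GTAAACA and 9.02% held AAAACAA on either strand.

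Most of the family was expressed in muscle, and a few genes carried much of it. Together the 54 genes took 0.321 to 0.531% of the counts in STZ TKO, 0.386 to 0.768% in STZ floxed, 0.303 to 0.468% in TKO and 0.361 to 0.438% in floxed libraries. Usp47, which acts on DNA polymerase beta in base excision repair, held 17.7% of all counts of the family, and Usp47, Usp13 and Usp2 together held 40.2%. The 10 most counted genes, which also include Usp15, Usp19, Usp24, Usp4, Usp25, Usp7 and Usp9x, held 74.7%.

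Per kilobase of exon, which allows genes to be compared, Usp13 and Usp2 led. Usp13, a close relative of the chain-cutting Usp5, had group means of 72.4 CPM per kb in STZ TKO, 96.5 in STZ floxed, 69.0 in TKO and 84.9 in floxed muscle. Usp2, a protease under control of the circadian clock in mouse tissues, had 73.8, 61.3, 85.6 and 90.1 CPM per kb with the groups taken in that order. Next came Usp47 with a mean of 56.4 CPM per kb over the 4 groups, Usp19 with 40.3, Usp25 with 32.5 and Usp4 with 23.3. Over the 21 libraries the ranges of each of these neighbours overlapped in CPM per kb, and Usp13 averaged above Usp2 only in STZ floxed muscle. The lowest of the tested genes was Usp35, at 0.629 CPM per kb.

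**Figure D1:**
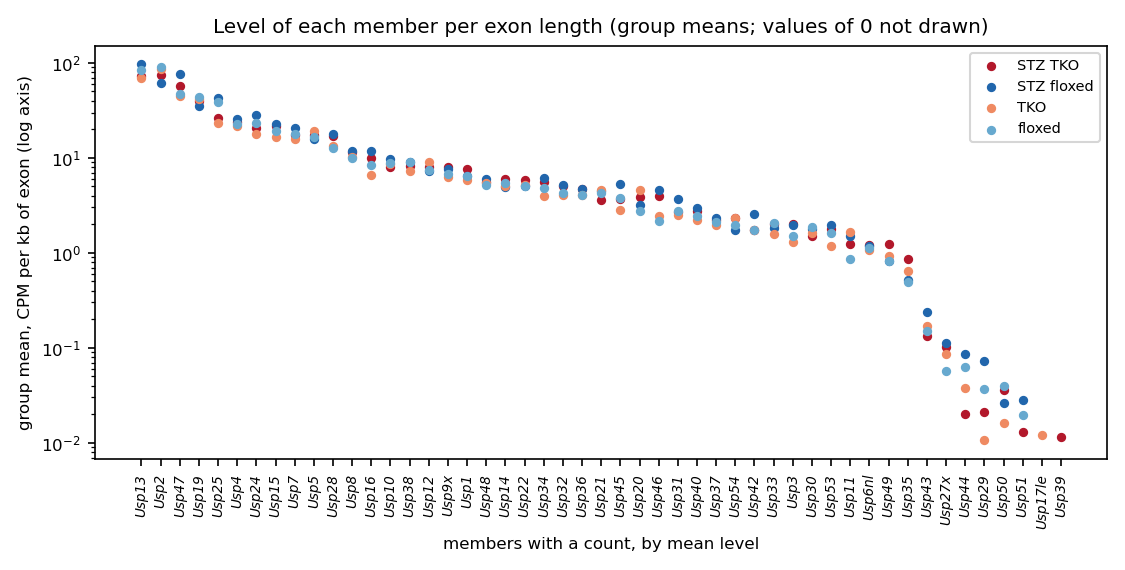
Group mean level of each Usp gene with at least 1 count, in CPM per kb of exon on a log axis, ordered by the mean of the 4 groups (STZ TKO, STZ floxed, TKO and floxed). Usp13, Usp2 and Usp47 lead, the 41 tested genes reach down to Usp35 at 0.629, and the untested genes with a count lie below them.

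The 13 untested genes had few or no counts. Usp17la, Usp17lb, Usp17lc, Usp17ld and Usp26, genes of the germline, had 0 counts in all 21 libraries, and Usp17le had 1. Usp50 had 11 and Usp29 71 counts over all libraries. Of the genes that act on histones, Usp51 had 4, Usp44 26 and Usp27x 46 counts, and Usp43 had 95. Usp39, a splicing factor of the family that has lost protease activity, had 1 count in all. No other gene of GENCODE M21 shares its exons. The annotation used for counting is not given, so this count cannot be read as low expression. The Usp17l genes are near-identical copies, so their counts are uncertain.

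Usp25 was lower and Usp20 higher in FoxO knockout muscle when libraries with and without STZ were analysed jointly. The edgeR quasi-likelihood test was fitted across 12658 genes with Benjamini-Hochberg adjustment at a threshold of 0.05. For the knockout effect averaged over STZ, it called 2 of the 41 tested genes (4.88%), against 9.8% of all genes tested. At an unadjusted p under 0.05 there were 6 of the 41, against 22.7% of all genes. This average, like the average of the STZ effects, was added after the effects in single groups had been seen. Of the 41 genes, 15 had positive and 26 negative log2 changes, with a median of -0.07, against 0.02 over all genes. Deubiquitinases of other families had 13 positive and 19 negative changes, with a median of -0.07.

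Usp25 is known from human cells to oppose endoplasmic reticulum-associated degradation, and it has a longer isoform in muscle that a count per gene does not separate. It had 121, 124 and 165 CPM in STZ TKO libraries (lowest, median and highest of 6) and 181, 197, 218, 244 and 257 CPM in the 5 STZ floxed libraries. In the 6 TKO libraries it had 68.9, 77.8, 124, 133, 151 and 169 CPM, against 169, 194, 216 and 218 CPM in the 4 floxed libraries. The lowest values were those of libraries 20 and 6. These were also the lowest TKO libraries for 11 and 21 of the 41 tested genes. All 12 knockout libraries lay below all 9 floxed libraries, a separation found in 0.537% of all genes in either direction and in 0.387% in this one, although the highest knockout library, 2, and the lowest floxed library, 1, were both at 169 CPM after rounding.

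The mean of Usp25 was 128 ± 31.3 CPM in knockouts (SD, n = 12) and 211 ± 28.2 CPM in floxed libraries (n = 9). Averaged over STZ, Usp25 fell by 0.71 ± 0.14 on the log2 scale (SE; adjusted p = 0.00261 in edgeR's quasi-likelihood test). Under STZ the change was -0.69 ± 0.20 (adjusted p = 0.0449, edgeR), and without STZ it was -0.73 ± 0.21, which did not pass (adjusted p = 0.113). The STZ effects on Usp25 were 0.18 ± 0.19 in knockouts and 0.14 ± 0.22 in floxed muscle, neither past the threshold, and their difference was 0.04 ± 0.29. Usp25 (GRCm38, chromosome 16, 77013706 to 77116780, plus strand) shares no annotated exon base with another gene on its strand.

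The call averaged over STZ held with each library left out in turn and in all other settings run, with log2 changes of -0.77 to -0.60. Without libraries 4, 15, 16 and 20, the 4 with the highest macrophage sums of 1930, 2520, 1140 and 2000 CPM, Usp25 was at -0.60 (edgeR adjusted p = 0.0226). Of the 7 endothelial markers, 1 (Tie1) passed as lower for the averaged knockout effect and all 7 had negative changes, with summed levels of 231 to 379 CPM in STZ TKO and 415 to 490 in STZ floxed libraries, and 291 to 417 in TKO and 386 to 471 in floxed libraries. The 15 markers of denervation and acetylcholine receptors, of which 7 passed as higher for the averaged knockout effect, summed to 219 to 906 CPM in STZ TKO and 260 to 461 in STZ floxed libraries, and to 252 to 2250 in TKO and 199 to 324 in floxed libraries. Of 5 proliferation markers 3 were tested, and these 3 (Cdk1, Mki67 and Top2a) passed as higher, with summed levels of the 5 of 1.46 to 46.1 CPM in STZ TKO and 0.925 to 4.29 in STZ floxed libraries, and 4.33 to 101 in TKO and 1.72 to 2.79 in floxed libraries. Of the 5 adipocyte markers, 1 (Plin1) passed as lower and all 5 had negative changes, with summed levels of 41.6 to 504 CPM in STZ TKO and 68.9 to 347 in STZ floxed libraries, and 92.3 to 200 in TKO and 123 to 243 in floxed libraries. Of the 9 fibroblast markers, 1 (Col3a1) passed as higher, with 7 positive and 2 negative changes. The part of these lists in the Usp25 and Usp20 results was not tested, and in these whole-muscle samples fewer cells of a type and less RNA per cell cannot be told apart.

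The call under STZ alone was less steady. It was lost without any 1 of the STZ floxed libraries 3, 7, 14 or 21, the STZ TKO libraries 4, 11, 15 or 18, the TKO libraries 10 or 16, or the floxed libraries 1, 5, 9 or 19, with edgeR adjusted p-values up to 0.115 (without library 7). The library codes form 6 runs of consecutive codes, which the labels do not call batches. Within runs, the log2 ratio of Usp25 was -0.68, -0.68, -0.81 and -0.56 for STZ TKO over STZ floxed in runs 1, 2, 4 and 5. For TKO over floxed it was -1.32, -0.72 and -1.65 in runs 2, 3 and 6 and 0 to 2 decimals in run 1, where the libraries at 169 CPM stand.

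Usp20, which binds the von Hippel-Lindau protein and recycles adrenergic receptors in human cells, went the other way. It had 25.5, 34.7 and 44.7 CPM in STZ TKO libraries (lowest, median and highest of 6) and 25.4, 25.9, 26.9, 31.1 and 34.2 CPM in STZ floxed libraries. TKO libraries had 27.9, 39.0 and 59.6 CPM and floxed libraries 19.3, 25.9, 27.0 and 27.7 CPM. Without STZ the groups did not overlap, as in 4.97% of all genes, while under STZ they overlapped.

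Averaged over STZ, Usp20 rose by 0.49 ± 0.14 (edgeR adjusted p = 0.023), with means of 37.8 ± 9.35 CPM in knockouts (n = 12) and 27.0 ± 4.08 CPM in floxed libraries (n = 9). The change was 0.27 ± 0.19 under STZ (adjusted p = 0.477, edgeR) and 0.72 ± 0.20 without STZ (adjusted p = 0.103), and neither passed. The difference between the STZ effects, -0.45 ± 0.27, did not pass either (unadjusted p = 0.113 in the edgeR model). The averaged call was lost without floxed library 9 (0.44, adjusted p = 0.0654), without libraries 4, 15, 16 and 20 (0.39, 0.141) and with no low-count filter (0.0594).

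**Figure D2:**
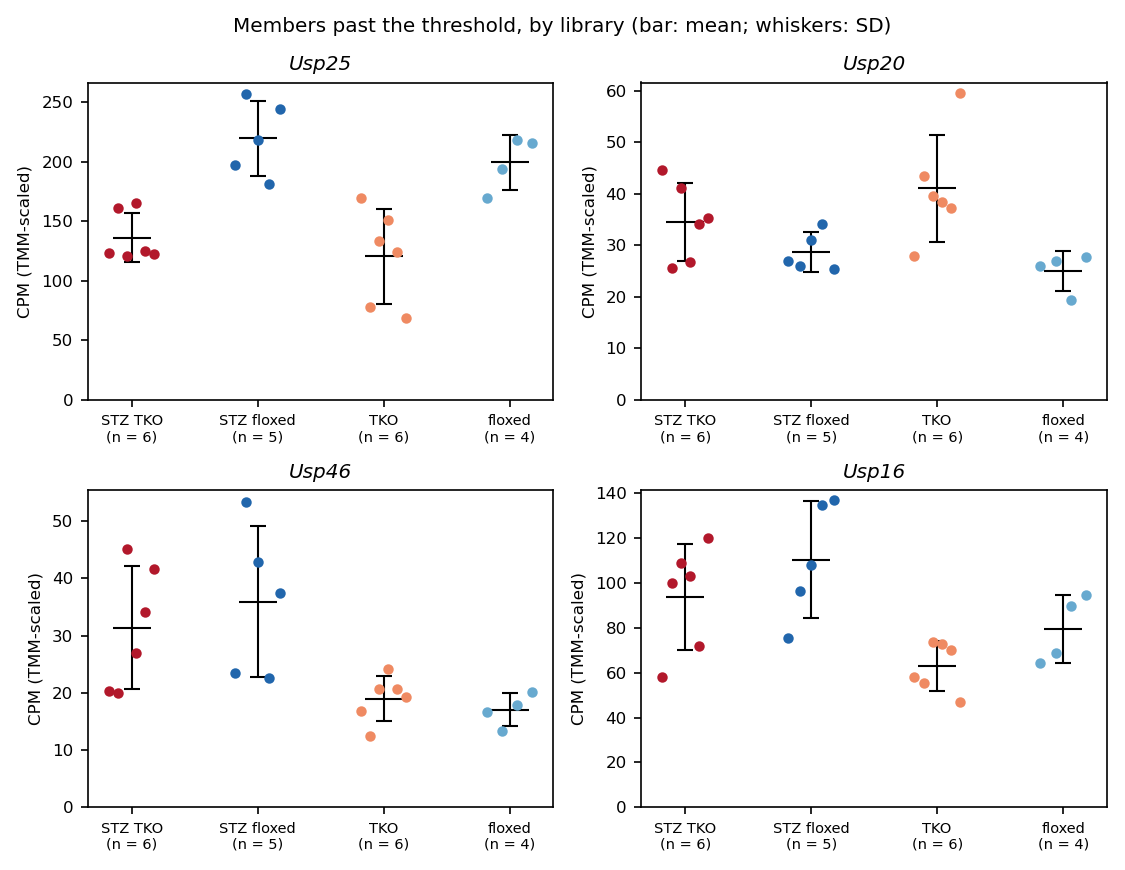
CPM of Usp25, Usp20, Usp46 and Usp16 in each library of the STZ TKO (n = 6), STZ floxed (n = 5), TKO (n = 6) and floxed (n = 4) groups; the long bar is the mean and the whiskers the SD. Usp25 is lower in both knockout groups than in both floxed groups, and Usp46 averages 31.4 and 35.9 CPM in the STZ groups against 19.0 and 17.1 CPM in the others.

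Taken group by group, few of these genes passed for the knockout effect, as few of all genes did, which does not show that the others were unchanged. Under STZ, edgeR called 1 of 41 genes (2.44%), Usp25, against 4.89% of all genes and 2.42% in the lower direction, with 6 of 41 at an unadjusted p under 0.05, against 18.7%. Without STZ it called 0 of 41, against 0.514% of all genes, with 3 of 41 at an unadjusted p under 0.05, against 11.5%. There DESeq2 called 2 of 41, Usp25 (-0.71, adjusted p = 0.0375) and Usp20 (0.74, 0.0209), against 351 of the 12658 genes, and limma voom 0. The groups did not overlap for 1 gene under STZ, Usp25, against 3.74% of all genes, and for 2 without STZ, Usp25 and Usp20, against 4.97%. As 1 and 2 of 41, both are near the shares of all genes.

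Usp46 and Usp16 were higher after STZ when both genotypes were analysed jointly. For this average edgeR called 2 of 41 genes (4.88%), both higher, against 4.54% of all genes and 2.16% in the higher direction. At an unadjusted p under 0.05 there were 7 of 41, against 23.0% of all genes, and groups with and without STZ overlapped for all 41, against 0.0711% of all genes without overlap. Positive log2 changes were found for 33 and negative for 8 of the 41, with a median of 0.19, against 0.02 over all genes. Over all genes 6591 of 12658 were positive. Deubiquitinases of other families had 23 positive and 9 negative changes, with a median of 0.23, so the direction was not particular to these genes.

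Usp46, which like Usp1 and Usp12 is activated by the WD-repeat protein UAF1, had 20.0, 30.5 and 45.1 CPM in STZ TKO libraries (lowest, median and highest of 6) and 12.5, 19.9 and 24.2 CPM in TKO libraries (of 6). It had 22.5, 23.4, 37.5, 42.8 and 53.4 CPM in STZ floxed libraries, against 13.4, 16.7, 17.9 and 20.2 CPM in floxed libraries. All 5 STZ floxed libraries lay above all 4 floxed libraries, while STZ TKO and TKO libraries overlapped. STZ floxed and floxed libraries did not overlap for 8.79% of all genes, in either direction.

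The mean of Usp46 was 33.4 ± 11.5 CPM with STZ (n = 11) and 18.2 ± 3.53 CPM without (n = 10). Averaged over genotype, Usp46 rose by 0.89 ± 0.18 on the log2 scale (edgeR adjusted p = 0.00806), and this held without each library in turn and in every other setting run, with adjusted p-values up to 0.0253. The change was 0.72 ± 0.24 in knockouts (adjusted p = 0.281, edgeR) and 1.06 ± 0.28 in floxed muscle (adjusted p = 0.0601). Neither passed alone in edgeR, and the difference between them was -0.34 ± 0.36. The 9 fibroblast markers, of which 4 passed as lower for the averaged STZ effect, summed to 771 to 5220 CPM in STZ TKO and 2230 to 8860 in TKO libraries, and to 605 to 1390 in STZ floxed and 2500 to 7890 in floxed libraries. For the same effect 1 of 7 endothelial markers (Tie1) passed as lower, with 4 positive and 3 negative changes. So did 1 of 5 adipocyte markers (Lep), with 3 positive and 2 negative changes. The part of these lists in the STZ results was not tested. DESeq2 called the Usp46 effect in floxed muscle (1.08, adjusted p = 0.0106). Exons of Usp46 overlap antisense transcripts, Usp46os1 and Usp46os2, over 4.62% of their bases. Usp46os1 had 0 counts and Usp46os2 had 0.162 CPM in 1 library. The strand setting of the count is not given, so reads of the antisense strand cannot be told apart from those of Usp46.

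Usp16 removes ubiquitin from histone H2A. It had 58.1, 102 and 120 CPM in STZ TKO libraries (lowest, median and highest of 6) and 47.1, 64.2 and 73.9 CPM in TKO libraries (of 6). STZ floxed libraries had 75.6, 96.5, 108, 135 and 137 CPM, and floxed libraries had 64.2, 68.8, 89.6 and 94.8 CPM. The groups overlapped in both genotypes, and library 4 held the lowest STZ TKO value.

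Usp16 averaged 101 ± 25.1 CPM with STZ (n = 11) and 69.5 ± 14.6 CPM without (n = 10), a rise of 0.53 ± 0.15 on the log2 scale (edgeR adjusted p = 0.0422). The change was 0.57 ± 0.19 in knockouts and 0.48 ± 0.22 in floxed muscle (edgeR adjusted p = 0.287 and 0.327). This call stood near the threshold: it was lost without any 1 of libraries 1, 2, 5, 6, 9, 11, 12, 14, 17, 18, 20 or 21 (adjusted p up to 0.114, without library 1) and without libraries 17 and 18 together (0.44, 0.122), and with no low-count filter (0.0784).

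In single genotypes edgeR called no STZ effect on these proteases. In knockout muscle it called 0 of 41, against 0.142% of all genes, with 5 of 41 at an unadjusted p under 0.05, against 11.3%, and DESeq2 and limma voom also called 0. For floxed muscle the count was 0 of 41, against 1.35% of all genes. At an unadjusted p under 0.05 there were 4 of 41, against 14.4%. DESeq2 called 1 of 41 there (Usp46), against 425 of the 12658 genes, and limma voom 0. STZ floxed and floxed libraries did not overlap for 3 genes, Usp46 and Usp47 higher and Usp2 lower, against 8.79% of all genes, and STZ TKO and TKO libraries overlapped for all 41 genes, against 0.624% of all genes without overlap. The difference between the STZ effects was called for 0 of 41 genes by edgeR, DESeq2 and limma voom, against 0.0079% of all genes in edgeR, with 1 of 41 at an unadjusted p under 0.05, Usp11, against 3.89%.

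**Figure D3:**
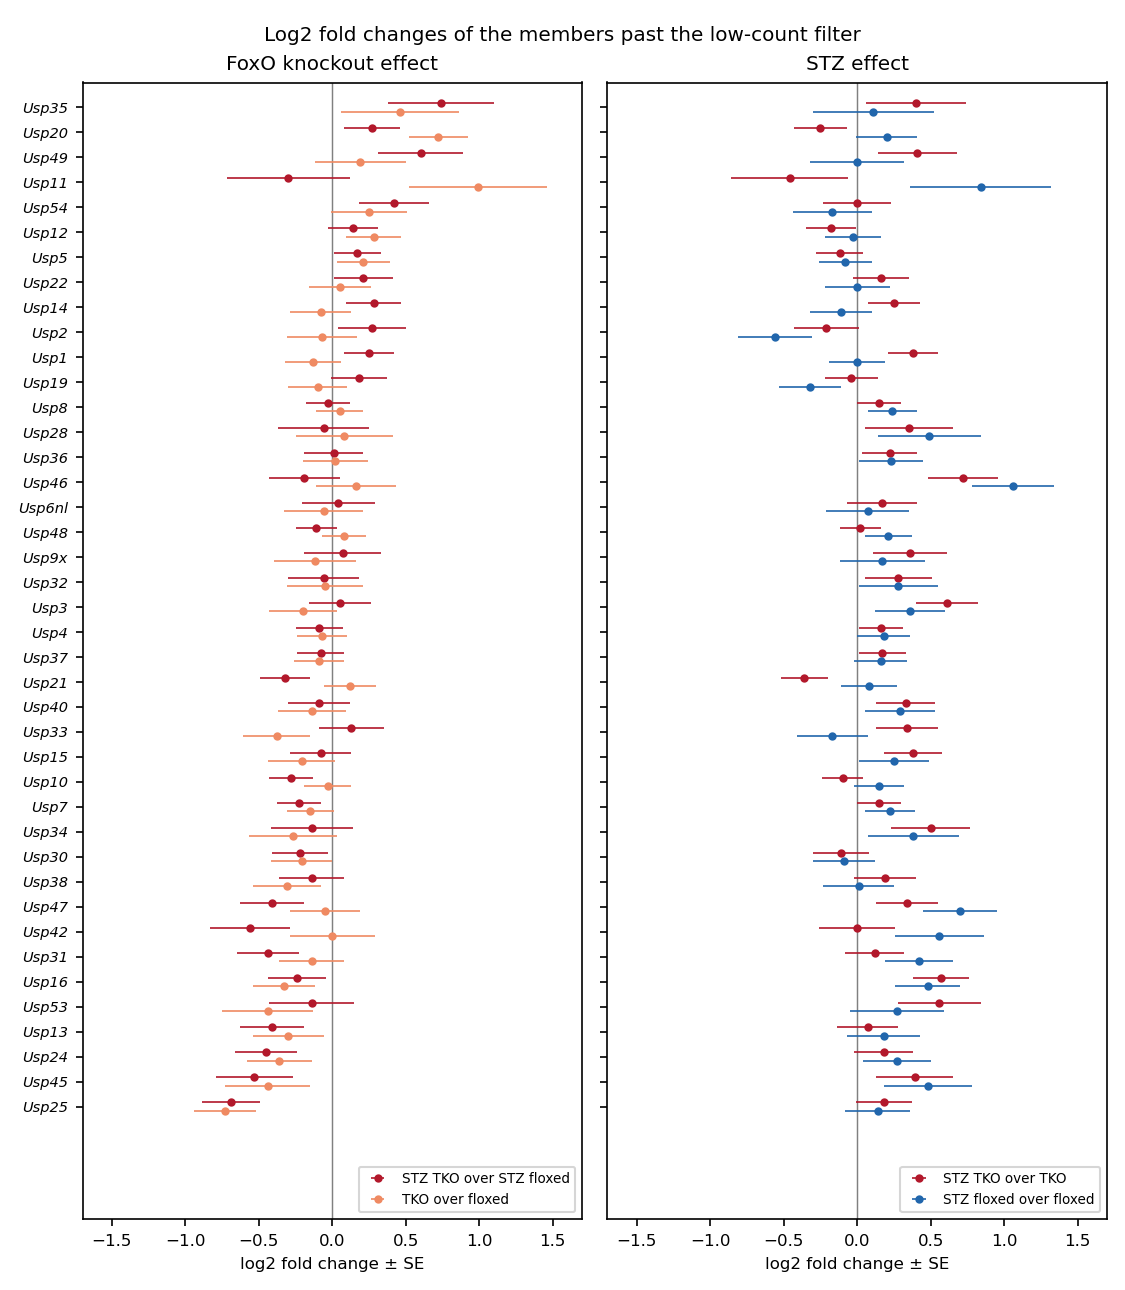
Log2 fold changes ± SE of the 41 tested Usp genes for the FoxO knockout effect (left: STZ TKO over STZ floxed, TKO over floxed) and the STZ effect (right: STZ TKO over TKO, STZ floxed over floxed), ordered by the knockout effect averaged over STZ. Usp25 stands at the lower end of the knockout effects with -0.69 and -0.73, and Usp46 has the largest STZ effects of those shown in floxed muscle, 1.06.

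Of the 3 proteases grouped under muscle protein mass and the endoplasmic reticulum, 1 passed, Usp25, for the knockout effect under STZ and averaged over STZ, where 4.89% and 9.8% of all genes passed. Usp19, whose loss spares muscle mass in mice under wasting conditions, had 156, 295 and 367 CPM in STZ TKO libraries (lowest, median and highest of 6) and 203, 235, 237, 252 and 322 CPM in STZ floxed libraries. TKO libraries had 233, 289 and 365 CPM and floxed libraries 269, 286, 317 and 375 CPM. All 4 groups overlapped. The knockout effect on Usp19 was 0.18 ± 0.19 under STZ and -0.10 ± 0.20 without, and the STZ effect was -0.04 ± 0.18 in knockouts and -0.32 ± 0.21 in floxed muscle, with edgeR adjusted p-values of 0.496 or more.

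Usp28, the closest relative of Usp25, which stabilises the transcription factor Myc in human cells, did not follow Usp25. It had 51.6, 92.4 and 148 CPM in STZ TKO libraries (lowest, median and highest of 6) and 62.2, 67.7, 73.7, 82.1 and 233 CPM in STZ floxed libraries, where library 17 stood apart. TKO libraries had 44.2, 80.2 and 98.3 CPM and floxed libraries 62.6, 63.9, 70.0 and 98.4 CPM. The knockout effect on Usp28 under STZ was -0.06 ± 0.31, and without library 17 it was 0.47; neither passed.

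Among the proteases of the proteasome and of free ubiquitin chains, 0 of 3 passed in any comparison with edgeR, DESeq2 or limma voom, and 1, Usp13, had an unadjusted p under 0.05 for the averaged knockout effect, against 22.7% of all genes. Usp13 had 352, 542 and 709 CPM in STZ TKO libraries (lowest, median and highest of 6) and 557, 625, 636, 711 and 1140 CPM in STZ floxed libraries, the highest in library 17. TKO libraries had 278, 553 and 655 CPM and floxed libraries 609, 640, 663 and 669 CPM. Averaged over STZ, the knockout effect on Usp13 was -0.36 ± 0.16 (edgeR adjusted p = 0.191), and it passed with the run of library codes as a block (-0.49, 0.0395). Over the settings run, up to 1796 of the 12658 genes passed for this effect, against 1240 in the main fit.

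Usp14, which trims ubiquitin from proteins docked at the proteasome, averaged 50.4 ± 12.5 CPM in STZ TKO (n = 6), 41.6 ± 12.0 in STZ floxed (n = 5), 42.4 ± 5.51 in TKO (n = 6) and 44.9 ± 2.25 in floxed libraries (n = 4). Its changes were 0.28 ± 0.19 and -0.08 ± 0.21 for the knockout under and without STZ, and 0.25 ± 0.18 and -0.11 ± 0.21 for STZ in knockout and floxed muscle. Antisense exons of a neighbour, Thoc1, cover 26% of its exon bases, and the strand setting of the count is not given. Usp5, which takes free ubiquitin chains apart, had knockout effects of 0.17 ± 0.16 under STZ and 0.21 ± 0.18 without.

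**Figure D4:**
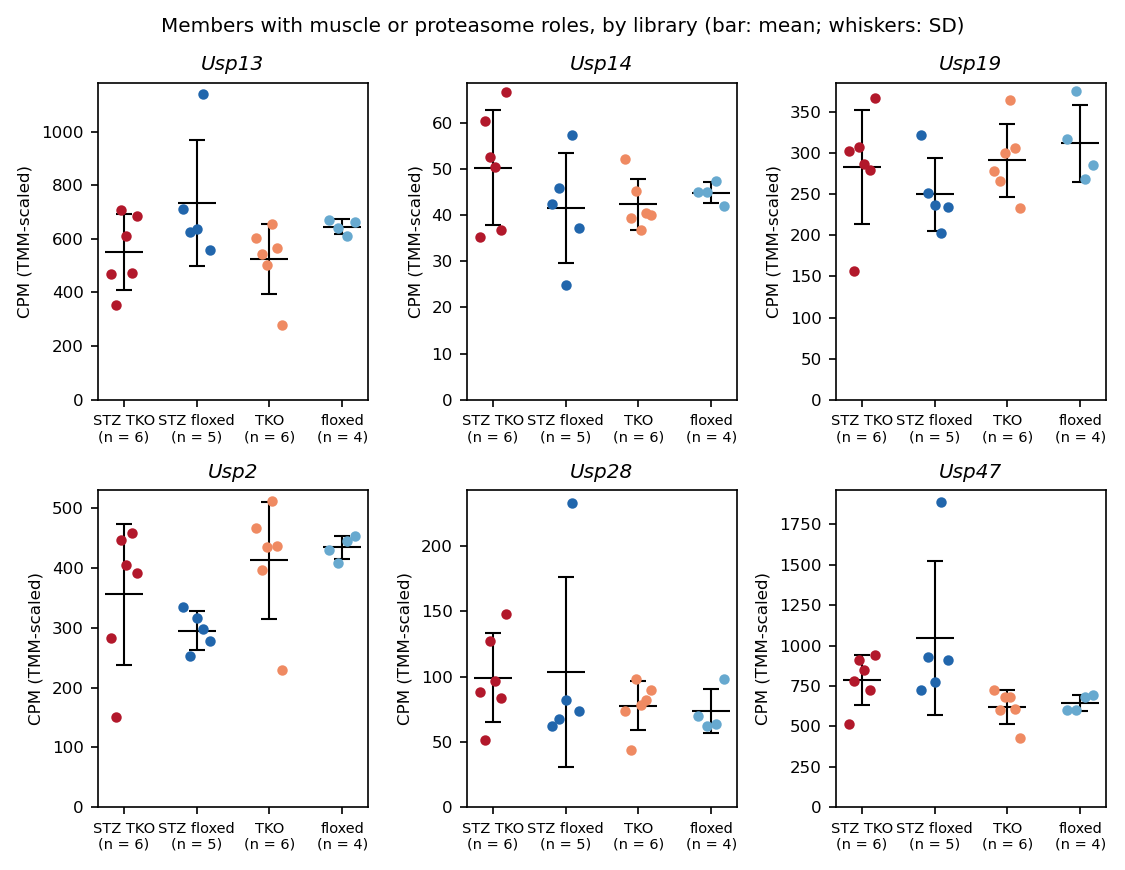
CPM of Usp13, Usp14, Usp19, Usp2, Usp28 and Usp47 in each library of the STZ TKO (n = 6), STZ floxed (n = 5), TKO (n = 6) and floxed (n = 4) groups; the long bar is the mean and the whiskers the SD. Library 17 is the single high STZ floxed point of Usp13 (1140 CPM), Usp28 (233 CPM) and Usp47 (1890 CPM), and the Usp2 values of STZ floxed libraries all lie below those of floxed libraries. STZ floxed and floxed libraries did not overlap for 8.79% of all genes.

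Usp2 was lower in all 5 STZ floxed libraries, at 252, 277, 297, 316 and 334 CPM, than in all 4 floxed libraries, at 408, 430, 445 and 453 CPM. These groups did not overlap for 8.79% of all genes, in either direction. The change of -0.56 ± 0.25 did not pass over all genes (edgeR adjusted p = 0.31). In knockouts, STZ TKO libraries had 151, 397 and 459 CPM (lowest, median and highest of 6) and TKO libraries 229, 436 and 512 CPM, so these groups overlapped. The STZ effect there was -0.21 ± 0.22, and the difference between the STZ effects, 0.34 ± 0.33, did not pass.

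Usp47 ran the other way under STZ. It had 724, 778, 911, 932 and 1890 CPM in STZ floxed libraries, against 600, 602, 681 and 696 CPM in floxed libraries. STZ TKO libraries had 514, 818 and 939 CPM (lowest, median and highest of 6) and TKO libraries 427, 645 and 725 CPM. The STZ effect on Usp47 was 0.34 ± 0.21 in knockouts and 0.70 ± 0.25 in floxed muscle (edgeR adjusted p = 0.539 and 0.186), and 0.52 ± 0.17 averaged over genotype (0.0678). Without library 17, which held the value of 1890 CPM, the effect in floxed muscle was 0.40.

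The 9 tested proteases of DNA repair and p53 control all had positive averaged STZ effects, with a median of 0.19. Of all 41 tested genes 33 were positive, with the same median. In edgeR 0 of 9 passed, against 4.54% of all genes, with 2 of 9 at an unadjusted p under 0.05, against 23.0%. DESeq2 called 1 of them, Usp47, against 1100 of the 12658 genes, and limma voom 0. Usp24, which acts on p53 in human cells, had 165, 259 and 312 CPM in STZ TKO libraries (lowest, median and highest of 6) and 292, 318, 329, 357 and 428 CPM in STZ floxed libraries. TKO libraries had 133, 246 and 300 CPM and floxed libraries 256, 271, 297 and 320 CPM. The averaged knockout effect on Usp24 was -0.41 ± 0.15 (edgeR adjusted p = 0.0987), and it passed with the run of library codes as a block (-0.55, 0.0138), as did Usp45 (-0.55, 0.0173). Up to 1796 of the 12658 genes passed for this effect over the settings run, against 1240 in the main fit.

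Usp11, which acts on BRCA2, was among the lowest of the tested genes, at 1.82, 4.8 and 10.7 CPM in STZ TKO libraries (lowest, median and highest of 6) and 3.24, 4.94, 5.25, 10.0 and 12.5 CPM in STZ floxed libraries. TKO libraries had 3.32, 6.74 and 18.0 CPM and floxed libraries 3.22, 3.62, 4.18 and 5.17 CPM. The difference between its STZ effects was -1.29 ± 0.62 (unadjusted p = 0.0487 and adjusted p = 1.0 in edgeR's model), from -0.46 ± 0.40 in knockouts and 0.84 ± 0.48 in floxed muscle. Library 20 held the value of 18.0, and the cause was not tested.

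Usp7, which stabilises Mdm2 and p53 and removes ubiquitin from FOXO4 in human cells, averaged 137 ± 23.5 CPM in STZ TKO, 160 ± 30.5 in STZ floxed, 123 ± 15.2 in TKO and 137 ± 7.15 in floxed libraries. Usp10, a partner of the stress granule protein G3BP1, averaged 76.2 ± 12.9, 92.7 ± 14.5, 81.8 ± 11.8 and 83.5 ± 4.59 CPM with the groups taken in that order. Usp1, which acts on FANCD2 and PCNA, averaged 28.7 ± 8.64, 24.0 ± 3.73, 21.9 ± 2.74 and 24.0 ± 1.03 CPM. None of the 3 passed in any comparison, and Usp1 had an unadjusted p of 0.0332 for STZ in knockouts (0.38 ± 0.17, edgeR adjusted p = 0.407).

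Of the 5 tested proteases of histones, 1 passed, Usp16, for the averaged STZ effect, where 4.54% of all genes passed. Usp3, which acts on histones H2A and H2B, had 10.5, 12.7 and 19.4 CPM in STZ TKO libraries (lowest, median and highest of 6) and 5.99, 8.99 and 12.4 CPM in TKO libraries (of 6). Its STZ effect was 0.61 ± 0.21 in knockouts and 0.36 ± 0.24 in floxed muscle (edgeR adjusted p = 0.291 and 0.506), and 0.49 ± 0.16 averaged over genotype (0.0728). The averaged effect passed with DESeq2 (0.50, 0.0411), with the run of library codes as a block (0.49, 0.0347) and without libraries 4, 15, 16 and 20 (0.61, 0.0402). For this effect up to 1100 of the 12658 genes passed over the settings run, against 575 in the main fit. Usp21, which acts on H2A, had STZ effects of -0.36 ± 0.16 in knockouts and 0.08 ± 0.19 in floxed muscle, a difference of -0.44 ± 0.25 that did not pass (unadjusted p = 0.0954). Usp49 shares 51.2% of its exon bases with other annotated genes on its strand, so its counts are uncertain.

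Of the 10 tested genes of endosomes, membranes and the cytoskeleton, 1 passed, Usp20, for the averaged knockout effect (10.0%, against 9.8% of all genes). Usp31 had a knockout effect of -0.44 ± 0.21 under STZ (edgeR adjusted p = 0.252), with means of 27.7 ± 6.0 CPM in STZ TKO and 37.7 ± 10.7 CPM in STZ floxed libraries. Usp33, a relative of Usp20, had knockout effects of 0.13 ± 0.22 under STZ and -0.38 ± 0.23 without, and 24.4% of its exon bases have an antisense partner. Both mitochondrial proteases were low. Usp30, which opposes Parkin at the outer mitochondrial membrane, averaged 9.11 ± 1.72 CPM in STZ TKO, 10.7 ± 1.93 in STZ floxed, 9.87 ± 2.33 in TKO and 11.4 ± 1.98 in floxed libraries, with changes of -0.22 to -0.09 in the 4 single comparisons. Antisense exons cover 8.08% of its exon bases. Usp35 had knockout effects of 0.74 ± 0.36 under STZ and 0.46 ± 0.40 without.

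The 4 tested genes of Wnt, TGF-beta and kinase signalling (Usp4, Usp15, Usp34 and Usp38) had averaged knockout effects of -0.23 to -0.08 and averaged STZ effects of 0.10 to 0.44. None passed in edgeR, DESeq2 or limma voom, and 1, Usp34, had an unadjusted p under 0.05, for averaged STZ, against 23.0% of all genes. Antisense exons cover 20.5% of the exon bases of Usp38 and 11.6% of those of Usp34, and without the strand setting their reads cannot be told apart. The role groups hold few genes each, and their counts describe these libraries only.

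Library 17 carried high values for many of these genes. It was the highest of the 5 STZ floxed libraries for 28 of the 41 tested genes, had the highest share of counts in the family (0.768%), and had the lowest summed skeletal muscle markers of its group, 72300 CPM. Among STZ TKO libraries, library 8 was the lowest for 24 of the 41 genes. Among TKO libraries, library 6 was the lowest for 21 and library 13 the highest for 19 of them. The same was not counted over all genes, so it cannot be read as particular to this family.

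Other deubiquitinases were set beside the ubiquitin-specific proteases. Of 32 tested genes of the other families, edgeR called 2 for the knockout under STZ (6.25%, against 4.89% of all genes), beside 1 of 41 here: Stambp, which acts at endosomes, rose by 0.89 ± 0.23 (adjusted p = 0.0243) and Otub2 by 1.31 ± 0.32 (0.0168). For the averaged knockout effect 5 of 32 passed (15.6%, against 9.8% of all genes): Otub2 and the neuronal hydrolase Uchl1 rose, by 0.88 ± 0.23 and 0.98 ± 0.26, while Zranb1, Otud7b and Otud3 fell, by 0.55 ± 0.14, 0.55 ± 0.15 and 0.47 ± 0.14. For the averaged STZ effect 0 passed in edgeR, against 4.54% of all genes, with 11 of 32 at an unadjusted p under 0.05, against 23.0%. DESeq2 called 1 of 32 (Otud1), against 1100 of the 12658 genes, and limma voom 0. The difference between the families was not tested.

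In the rest of the ubiquitin pathway, the conjugating enzyme Ube2e1 rose in knockouts under STZ (0.97 ± 0.22, edgeR adjusted p = 0.0111), 1 of 13 activating and conjugating enzymes (7.69%, against 4.89% of all genes). Of 14 muscle ligases, Fbxo32 (atrogin-1) and Ubr2 fell for the averaged knockout effect, by 1.34 ± 0.37 and 0.53 ± 0.14 (edgeR adjusted p = 0.0221 and 0.0196), 14.3% of the list against 9.8% of all genes. Fbxo32 and Trim63 (MuRF1) rose for the averaged STZ effect, by 1.77 ± 0.39 and 1.88 ± 0.49 (0.0124 and 0.0301), 14.3% of the list against 4.54% of all genes. None of the 3 passed in a single comparison in edgeR, where DESeq2 called Fbxo32 and Ubr2 for the knockout under STZ and Fbxo32 for STZ in floxed muscle. In both comparisons DESeq2 also called more of all genes than edgeR, 425 against 171 for STZ in floxed muscle. Fbxo32 had 5600 CPM in library 17 and 2160 in library 18, 266 to 2310 in the other STZ libraries and 137 to 1160 without STZ. Trim63 had 8030 and 4920 CPM in libraries 17 and 18, 253 to 2950 in the other STZ libraries and 170 to 1270 without STZ. Partners of the proteases (10 genes) and the ubiquitin genes (4) had 0 calls in every edgeR comparison, with at most 1 and 0 at an unadjusted p under 0.05, 1 partner, Eny2, called by DESeq2 for STZ and 0 by limma voom.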

How the data were processed

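The deposited table holds raw counts of reads for each mouse Ensembl gene, not normalized by the authors. Per the submitters' processing notes, reads were aligned with STAR and counted with featureCounts on GRCm38.p4, with versions, annotation and strand setting not given in the sources used here. Symbols, coordinates and exon lengths came from GENCODE M21 (GRCm38), which named 45229 of 46071 identifiers; rows without a symbol held 0.0478% of the counts. Groups came from genotype and drug in the labels.

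Genes were filtered with filterByExpr by group (12658 kept), scaled by TMM (factors 0.862 to 1.35) and fitted with a robust quasi-likelihood model of 4 group means in edgeR 4.0.16 (R 4.3.3; coefficient of variation 0.325). Tests were two-sided with Benjamini-Hochberg adjustment over all genes in each comparison. SEs are of the log2 coefficient; means are given ± SD. Averaged effects are contrasts over 4 group means. The fit was tested on simulated data. Library totals had a median of 5665819. Every pair of libraries differed by more than sampling noise (chi-square over its degrees of freedom at least 8.61 in 46 same-group pairs and 10.1 in 164 others).

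The genes, lists, roles and marker lists were chosen with earlier results of these data known. Genes named with values are every gene past the threshold, the 3 with the smallest p in each comparison and a fixed set with roles in muscle, proteasome or FoxO biology. Values of Usp5, Usp33, Usp34, Usp35, Usp45 and Usp49 were chosen after they were seen. Alternatives were RLE or upper-quartile scaling, no filter, a filter of 10 counts in each group mean, DESeq2 1.42.0, voom in limma 3.58.1, only the groups compared, the code run as a block, without libraries 17 and 18, without libraries 4, 15, 16 and 20, and each library left out.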

Additional observations from a re-analysis of the deposited data

Results flagged for a closer look

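Among 19 named genes in 4 groups each, 7 of 76 groups held a library far from the others of its group by Dixon's test, where chance gives about 1 in 20. Usp1 was high in STZ TKO library 8, at 45.2 CPM against at most 29.0 in the other 5. In TKO library 20, Usp10 was low, at 59.2 CPM against at least 79.9, and Usp11 was high, at 18.0 CPM against at most 8.05. Usp21 was high in TKO library 13, at 25.8 CPM against at most 21.7. STZ floxed library 17 was high for Usp13, at 1140 CPM against at most 711, for Usp28, at 233 CPM against at most 82.1, and for Usp47, at 1890 CPM against at most 932. The causes were not tested.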

How the results depend on the processing

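No paired analysis was possible because the title numbers 1 to 21 are unique, so no replicate number is shared between groups. A fit with the run of consecutive library codes as a block was made, and the calls it changed are given with the other settings.

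Usp25 for the averaged knockout effect and Usp46 for the averaged STZ effect kept direction and call in all 30 settings run. For the single comparisons, counts of Usp genes called moved as follows, against 0 without STZ, 1 under STZ, and 0 in both STZ effects. For the knockout effect without STZ it was 2 with DESeq2. For the knockout effect under STZ it was 0 with no low-count filter, the stricter filter, limma voom, without libraries 17 and 18 and without libraries 4, 15, 16 and 20, and 0 to 1 with each library left out. For the STZ effect in floxed muscle it was 1 with DESeq2, 1 without libraries 17 and 18, and 0 to 1 with each library left out (Usp46 passed without library 3, 4, 8, 17 or 18). For the averaged knockout effect, 2 called became 1 with no filter and without libraries 4, 15, 16 and 20, 5 with the code-run block (Usp13, Usp24 and Usp45 added) and 1 to 2 with each library left out. Over all 12658 genes the calls for this effect reached 1796 in 1 of the settings, against 1240 in the main fit. For the averaged STZ effect, 2 became 1 with no filter and without libraries 17 and 18, 4 with DESeq2 (Usp3 and Usp47 added), 3 with the code-run block and 3 without libraries 4, 15, 16 and 20 (Usp3 added in both), and 1 to 3 with each library left out.

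Counts over all genes moved more. The 65 genes for the knockout without STZ became 42 with the stricter filter, 351 with DESeq2, 40 without libraries 4, 15, 16 and 20, 123 without libraries 17 and 18, and 33 to 105 with each library left out. The 619 under STZ became 1011 with DESeq2, 334 with only the groups compared, 1068 with the code-run block, and 384 to 785 with each library left out. The 171 for STZ in floxed muscle became 425 with DESeq2, 258 with only the groups compared, and 31 to 333 with each library left out. The 18 for STZ in knockouts became 29 with no filter, 9 with the stricter filter, 111 with DESeq2, 5 with only the groups compared, 98 with the code-run block, 28 without libraries 17 and 18, and 7 to 63 with each library left out. The 1 gene for the difference between STZ effects became 2 with no filter, 4 with DESeq2, 0 with limma voom, with the code-run block and without libraries 4, 15, 16 and 20, and 0 to 2 with each library left out. The 1240 for the averaged knockout became 549 without libraries 4, 15, 16 and 20 and reached at most 1796 in the other settings. The 575 for averaged STZ became 1100 with DESeq2, 1006 with the code-run block, 313 without libraries 17 and 18, and 222 to 1029 with each library left out. Moves of over 1.5 times came without libraries 1, 5, 9, 13, 16, 17 or 20 for the knockout without STZ, 7 or 21 under STZ, 1, 3, 5, 7, 9, 14, 17, 19 or 21 for STZ in floxed muscle, and 2, 4, 6, 8, 10, 11, 12, 13, 16, 17 or 18 for STZ in knockouts. They came without 3, 5, 7, 10, 17, 19 or 21 for the difference and 1, 3, 4, 5, 8 or 17 for averaged STZ. Leaving out libraries leaves fewer samples, and the cause was otherwise not tested.

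Signs turned only for changes that had not passed. For the knockout without STZ, Usp10 was 0.02 with upper-quartile scaling, 0.00 with the stricter filter and 0.10 without libraries 4, 15, 16 and 20; Usp28 was -0.10 with the code-run block; Usp2 was 0.08 without libraries 4, 15, 16 and 20. Under STZ, Usp28 was 0.06 with limma voom, 0.03 without libraries 4, 15, 16 and 20 and 0.33 without libraries 17 and 18. For STZ in floxed muscle, Usp1 was 0.02 with RLE scaling and with DESeq2 and 0.00 with the stricter filter and without libraries 4, 15, 16 and 20; without libraries 17 and 18, Usp13 was -0.02 and Usp28 -0.04. For STZ in knockouts, Usp13 was -0.04 with the code-run block and -0.01 without libraries 17 and 18. With each library left out, signs turned in some fits, at most 5 of 21 (Usp1 for STZ in floxed muscle). The ranges given are over all 21 of these fits. For the knockout without STZ they were -0.17 to 0.02 for Usp19, -0.06 to 0.06 for Usp10 and -0.15 to 0.06 for Usp2. Under STZ the range for the knockout was -0.21 to 0.47 for Usp28. For STZ in floxed muscle they were -0.19 to 0.02 for Usp30, -0.08 to 0.04 for Usp1 and -0.24 to 0.03 for Usp14. In the same comparison they were -0.01 to 0.28 for Usp13 and -0.03 to 0.66 for Usp28. For STZ in knockouts they were -0.13 to 0.08 for Usp19, -0.22 to 0.01 for Usp30 and -0.07 to 0.17 for Usp13. Genes with few counts, such as Usp35 and Usp11, had the widest errors.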
